A study of Homo sapiens with 6 samples.

Results

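The nuclear-encoded subunits of the mitochondrial respiratory chain and ATP synthase were followed in U2OS cells after knockdown of the RNA demethylase ALKBH5. Members were taken by gene symbol: NDUFA, NDUFB, NDUFC, NDUFS and NDUFV genes with a number, the UQCR genes, COX4 to COX8 genes, ATP5 genes, SDHA to SDHD, and CYC1. This gave 91 of the 23228 symbols counted. Of the 91, 83 encode a subunit or a subunit isoform: 36 of complex I, 4 of complex II, 10 of complex III, 18 of complex IV and 15 of complex V. The other 8 match the naming pattern and were not counted as subunits. Enough reads for a test were found for 82 of the 91 genes, among them 77 of the 83 subunit genes.

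Complex I takes electrons from NADH, and complex II takes them from succinate. Both pass them through ubiquinone to complex III, which hands them by cytochrome c to complex IV, the oxygen-reducing cytochrome c oxidase. Complexes I, III and IV pump protons, and complex V, the ATP synthase, makes ATP from the gradient. Complex II is encoded wholly in the nucleus, while the other complexes join nuclear subunits to a few encoded in mitochondrial DNA.

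U2OS is an established human osteosarcoma line. The cells received siRNA against ALKBH5 (3 libraries) or scrambled siRNA (3 libraries) and were harvested 48 hours later. The labels name no other allele, drug or condition, and ALKBH5 is an enzyme that takes N6-methyladenosine marks off RNA. The sources give neither the sequences nor the number of the siRNAs and hold no rescue, and they do not tie replicates to separate cultures, so every p-value below measures the spread between libraries.

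Reads assigned to genes numbered 19748583 to 19919797 in the ALKBH5 siRNA libraries and 18817181 to 23410007 in the scrambled siRNA libraries. Reads placed outside genes made up 17.3 to 18.6% in the ALKBH5 siRNA and 15 to 15.5% in the scrambled siRNA libraries, and the part of this gap in the results below was not tested. CPM values (read counts scaled to a common depth by the trimmed mean of M values, TMM) of ALKBH5 were 19.4, 16.2 and 15.7 in the ALKBH5 siRNA libraries, against 138, 148 and 143 in the scrambled siRNA libraries. The knockdown is visible in each library, with a log2 fold change of -3.06 (SE 0.10, adjusted p = 1.6e-09, edgeR quasi-likelihood test with Benjamini-Hochberg adjustment over 14504 tested genes). Among osteoblast and mesenchymal markers, RUNX2 reached at least 28.6 CPM in the ALKBH5 siRNA libraries and 20.6 CPM in the scrambled siRNA libraries. SP7 stayed at or under 0.0526 CPM in the ALKBH5 siRNA and 0.0832 CPM in the scrambled siRNA libraries, so this defining osteoblast gene is nearly absent. COL1A1 had at least 1910 CPM in the ALKBH5 siRNA and 1480 CPM in the scrambled siRNA libraries, while COL1A2 stayed at or under 1.64 and 9.7 CPM in those groups. VIM had 1340 to 1590 CPM in the ALKBH5 siRNA and 1910 to 1970 CPM in the scrambled siRNA libraries. ALPL was low, with 2.1 to 3.18 CPM and 3.51 to 4.54 CPM in those groups. Markers of other cell types were low and not all absent. The leukocyte gene PTPRC reached 0.921 CPM in the ALKBH5 siRNA and 1.62 CPM in the scrambled siRNA libraries, and CD3E had 0 reads in both groups. The endothelial gene CDH5 reached 1.02 and 1.17 CPM in those groups, and PECAM1 0.154 and 0.0961 CPM. The epithelial gene EPCAM reached 7.68 CPM after ALKBH5 siRNA and 5.95 CPM after scrambled siRNA, and CDH1 reached 1.58 and 0.576 CPM.

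The transcription factor NRF1 is known for binding GC-rich repeats in promoters of respiratory chain genes. The motif searched here on both strands, GCGC followed by A, any base and GCGC, was found in 16 of the 67 subunit promoters matched in RefSeq (23.9%), in windows of 300 bases that run from 250 before to 50 after each start. It was found in 11.3% of 11046 tested genes with a promoter and in 1716 of all 27305 promoters (6.285%). The windows below, of 30 bases and from RefSeq on GRCh38.p14, show promoters of subunits that fell (SDHA, NDUFB4, UQCRC1) and that rose (SDHD, NDUFA11, UQCR11) after ALKBH5 siRNA. Each is written 5′ to 3′ on the strand of its gene, with the match to the motif or its reverse complement in capitals.
SDHA, chr5:218144-218173, plus strand: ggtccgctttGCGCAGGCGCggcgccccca
SDHA, chr5:218193-218222, plus strand: gtggcatggtGCGCAGGCGCgatgtccccc
SDHA, chr5:218242-218271, plus strand: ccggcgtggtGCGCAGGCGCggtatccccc
NDUFB4, chr3:120596167-120596196, plus strand: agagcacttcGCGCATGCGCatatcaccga
NDUFB4, chr3:120596263-120596292, plus strand: ctctgctaacGCGCAGGCGCacttcctgaa
UQCRC1, chr3:48609674-48609703, minus strand: gtacggtactGCGCCTGCGCcgcgaccgcc
SDHD, chr11:112086753-112086782, plus strand: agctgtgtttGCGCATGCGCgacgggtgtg
NDUFA11, chr19:5903869-5903898, minus strand: ccggtccccgGCGCGTGCGCgcgatccatg
UQCR11, chr19:1605472-1605501, minus strand: ccctccccgcGCGCGTGCGCgccgcggccg

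SDHA holds 3 matches, which begin 166, 117 and 68 bases before its start, and the match of SDHD begins 110 bases before its start. The match of SDHD and the upstream match of NDUFB4 have the same letters, although their transcripts moved in opposite directions. The motif was found in 4 of 16 promoters of subunits that rose, in 4 of 13 of those that fell and in 7 of 34 of those not called. CCGGAAG, a core of sites for GABP and other ETS factors, was in 19 of the 67 subunit promoters (28.4%), in 18.4% of promoters of tested genes and in 10.668% of all promoters, counted on both strands. It was in 7 of 16 promoters of subunits that rose (43.8%), in 3 of 13 of those that fell (23.1%) and in 9 of 34 of those not called (26.5%). AAGATGGCG, a YY1 motif counted in the same way, was in 8 of the 67 (11.9%), in 3.80% of promoters of tested genes and in 1.849% of all promoters, with 1 of 16, 1 of 13 and 6 of 34 in those sets. The differences between the sets were not tested. A match describes the letters of the window and is not evidence of binding.

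ALKBH5 siRNA was followed by changes in both directions among the subunits, and each of the 5 complexes held both higher and lower subunits. Of the 82 members tested, 20 were higher and 19 lower at an adjusted p under 0.05, a share of 47.6%. This is below the background, since 61.6% of all tested genes were called, 30.8% higher and 30.8% lower. Among the 77 subunit genes tested, 19 were higher and 17 lower. In bulk RNA a change in each cell cannot be told apart from a change in the mix of cells. Without the 2nd scrambled siRNA library 12 members were higher in place of 20. With library totals in place of scaling factors, 15 members were higher and 24 lower. Of all tested genes, 4019 were then higher and 4992 lower.

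Changes of the subunits were small for this comparison. A change of at least 1.5-fold was called for 10 members (12.2% of those tested), against 38.4% of all tested genes. Libraries of the ALKBH5 siRNA group did not overlap those of the scrambled siRNA group for 45 of the 82 members, or 54.9%, and for 67.4% of all tested genes. Of 8667 tested genes within the abundance range of the subunits (average log2 CPM of 4.28 to 9.74), 67.1% were called and 34.3% were called at 1.5-fold or more. Of the 76 subunit genes in that range, 47.4% were called and 11.8% were called at 1.5-fold or more. The median size of the log2 fold change was 0.22 for these subunits and 0.40 for the genes of that range. COX6B2, with an average log2 CPM of -0.14, was the subunit gene tested that lies outside the range.

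**Figure D1:**
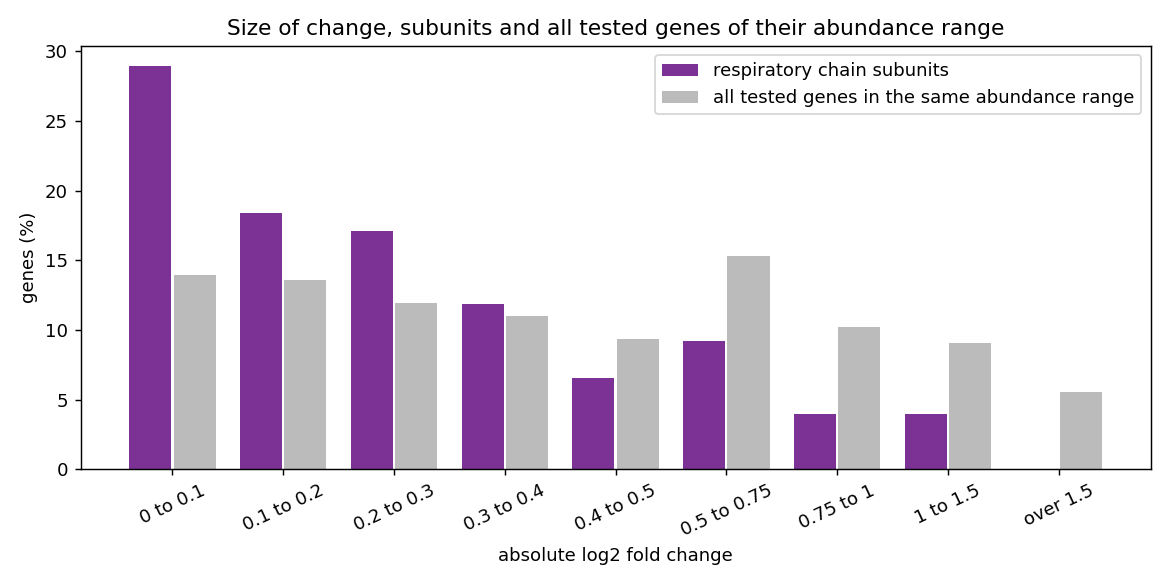
Share of genes (percent) by absolute log2 fold change, ALKBH5 siRNA over scrambled siRNA, for 76 respiratory chain subunits (purple) and 8667 tested genes of the same abundance range (grey). Classes widen to the right. Of these subunits 28.95% lie within 0.1 of no change, against 13.98% of all genes of the range, and 0 of them lie beyond 1.5. The complex V subunit C14orf2 (-1.71), outside the symbol pattern, is not among them.

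Among the tested subunits of the symbol pattern, the one with the largest fall was in complex I. The core and the membrane arm of complex I each held subunits that rose and subunits that fell. Of its 36 subunits, 10 were higher and 8 lower, with a median log2 fold change of 0.07. In the quinone module NDUFS3 and NDUFS8 were lower and NDUFS7 was not called. Among the 3 core subunits of the NADH module, NDUFV1 was higher, NDUFV2 lower and NDUFS1 not called.

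NDUFS8, which carries iron-sulfur clusters on the way to the quinone, had 61.3, 46.5 and 63.7 CPM after ALKBH5 siRNA, against 88, 87.9 and 98.1 CPM after scrambled siRNA. The 2nd ALKBH5 siRNA library was the lowest of its group, and all 3 stayed under every scrambled siRNA library (log2 fold change -0.68, SE 0.12, adjusted p = 3e-04). NDUFS3, another core subunit, fell by 0.32 on the log2 scale (SE 0.08, adjusted p = 0.0033). NDUFS7, a core subunit at the quinone site, had 31, 24 and 35.4 CPM in the ALKBH5 siRNA libraries and 25.6, 26.7 and 33.1 CPM in the scrambled siRNA libraries. These ranges overlap, and its log2 fold change of 0.09 (SE 0.15, adjusted p = 0.63) was not called.

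NDUFV1, which binds NADH and the flavin, had 162, 151 and 196 CPM in the ALKBH5 siRNA libraries, against 112, 106 and 133 CPM in the scrambled siRNA libraries. Its lowest ALKBH5 siRNA value exceeded its highest scrambled siRNA value, with a log2 fold change of 0.54 (SE 0.11, adjusted p = 0.0015). NDUFV2, its iron-sulfur partner in the same module, had 61, 67.1 and 65 CPM after ALKBH5 siRNA, against 78.3, 79.5 and 88.1 CPM after scrambled siRNA. The partner thus went the other way, with no overlap (log2 fold change -0.35, SE 0.09, adjusted p = 0.0036). Of its 50-base windows 26.2% also occur in another gene. NDUFS1, which carries most of the clusters of the module, averaged 171 ± 13.1 CPM in ALKBH5 siRNA cells and 171 ± 6.48 CPM in scrambled siRNA cells (SD, n = 3 each), a log2 fold change of -0.0021 (SE 0.08, adjusted p = 0.98).

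Of the 8 accessory subunits grouped here with the matrix arm, NDUFA6 was the single one called. NDUFA9, not called, was grouped with the proximal membrane part and is not among them. NDUFA6, which docks the mitochondrial acyl carrier protein, had 150, 180 and 163 CPM in the ALKBH5 siRNA libraries and 133, 126 and 138 CPM in the scrambled siRNA libraries, without overlap (log2 fold change 0.31, SE 0.08, adjusted p = 0.0067). The other 7 lay between log2 fold changes of -0.20 (NDUFA7) and 0.25 (NDUFS6). NDUFA7 and NDUFS4 were called lower with library totals (adjusted p = 0.032 and 0.023), and NDUFS6 higher without the 1st ALKBH5 siRNA or the 3rd scrambled siRNA library (adjusted p = 0.044 and 0.018). NDUFA5 was called higher without the 3rd ALKBH5 siRNA library (adjusted p = 0.031). NDUFAB1, the acyl carrier protein itself, lies outside the symbol pattern and fell by 0.45 on the log2 scale (SE 0.10, adjusted p = 0.0018). NDUFB9, the docking subunit of the distal arm, had a log2 fold change of 0.29 (SE 0.10, adjusted p = 0.021), with overlapping groups. Its call was lost with library totals (adjusted p = 0.052). It was also lost without the 2nd or 3rd ALKBH5 siRNA or the 1st or 2nd scrambled siRNA library.

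As grouped here, the distal part of the membrane arm had 5 subunits higher and 3 lower of 11, and the proximal part 3 higher and 1 lower of 10. NDUFB5, a distal accessory subunit with a single membrane span, had 37.2, 39.2 and 36.7 CPM in the ALKBH5 siRNA libraries, against 93.4, 87.8 and 95.9 CPM in the scrambled siRNA libraries. All ALKBH5 siRNA libraries were low and close together, and its log2 fold change stood at -1.29 (SE 0.08, adjusted p = 1.2e-07), or 2.45-fold lower. NDUFB3, a small subunit of the same distal part, had 50.8, 61.1 and 54.4 CPM after ALKBH5 siRNA, against 35, 31.7 and 38.7 CPM after scrambled siRNA. It was high in each ALKBH5 siRNA library (log2 fold change 0.66, SE 0.11, adjusted p = 2e-04), and exons of FAM126B overlap it on the other strand. NDUFB7 and NDUFB4 of the distal part fell by 0.52 (SE 0.08, adjusted p = 0.00018) and 0.40 (SE 0.07, adjusted p = 0.00055) on the log2 scale.

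NDUFA10, a nucleoside kinase-like subunit of the proximal part, had 69.6, 62.7 and 68 CPM in the ALKBH5 siRNA libraries, against 118, 118 and 111 CPM in the scrambled siRNA libraries. The groups were clearly separate (log2 fold change -0.79, SE 0.08, adjusted p = 3.9e-06). NDUFA13, also known as GRIM-19, had 105, 123 and 116 CPM after ALKBH5 siRNA, against 83.1, 74.7 and 87.3 CPM after scrambled siRNA. It was higher in all ALKBH5 siRNA libraries (log2 fold change 0.49, SE 0.09, adjusted p = 5e-04). The remaining higher subunits of the membrane arm, NDUFA8, NDUFA11, NDUFB8, NDUFB10 and NDUFB11, had log2 fold changes from 0.23 (NDUFB10) to 0.29 (NDUFB11). The subunits not called there were NDUFA1, NDUFA3, NDUFA9, NDUFC1, NDUFC2 and NDUFS5 of the proximal part, from -0.07 (NDUFA1) to 0.21 (NDUFA3), and NDUFB1, NDUFB2 and NDUFB6 of the distal part, from -0.12 (NDUFB2) to 0.08 (NDUFB1). Without the 2nd scrambled siRNA library 5 complex I subunits were higher in place of 10, and of NDUFA8, NDUFA11, NDUFB8, NDUFB10 and NDUFB11 the last alone kept its call. With library totals 7 complex I subunits were higher and 10 lower, and NDUFA8 and NDUFB10 were not called (adjusted p = 0.064 and 0.11).

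**Figure D2:**
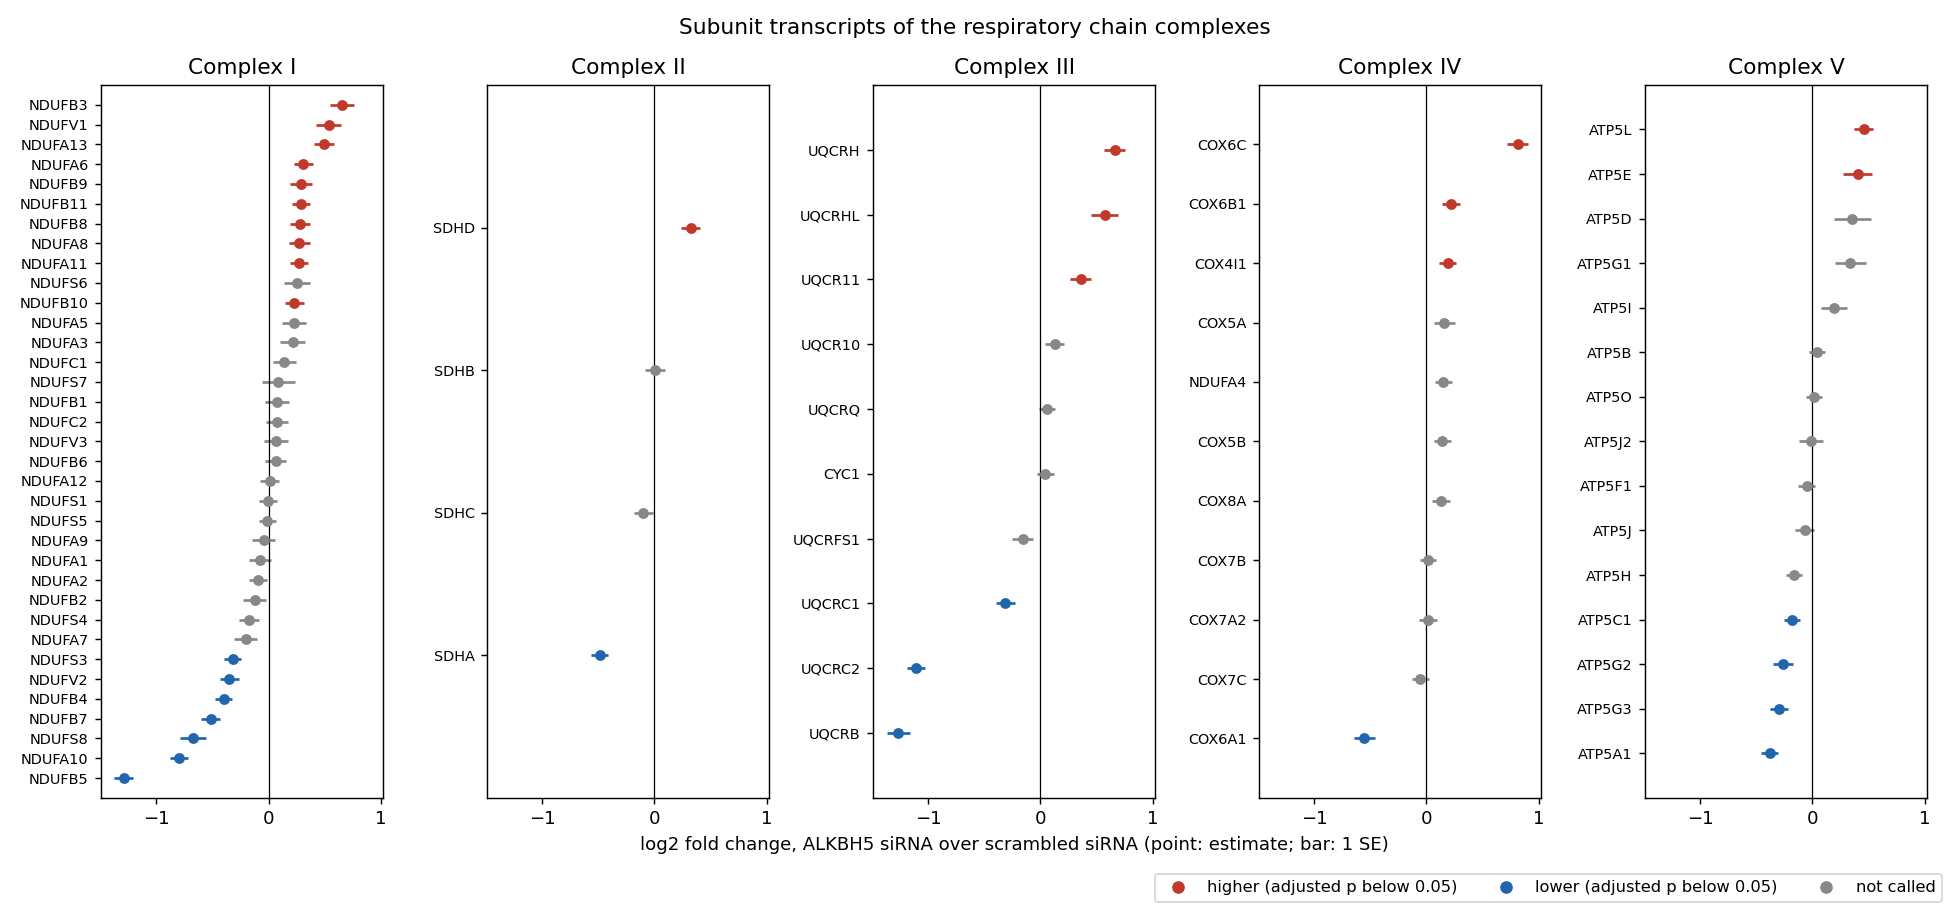
Log2 fold change of each subunit, ALKBH5 siRNA over scrambled siRNA (horizontal axis), with bars of 1 SE from the edgeR fit, by complex and sorted within it. Red marks subunits called higher, blue called lower and grey not called, for the tested subunits reported here, without COX6B2. Every complex has points of both colours, and NDUFB5 (-1.29), UQCRB (-1.27) and UQCRC2 (-1.11) stand farthest left.

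Complex II has 4 subunits, and its catalytic flavoprotein fell while a membrane anchor rose. SDHA, which oxidises succinate, had 107, 109 and 112 CPM in the ALKBH5 siRNA libraries, against 150, 152 and 159 CPM in the scrambled siRNA libraries. The groups did not come near each other (log2 fold change -0.49, SE 0.07, adjusted p = 8.6e-05). SDHD, an anchor that helps form the quinone site, had 74.1, 82.5 and 73.4 CPM after ALKBH5 siRNA, against 61.6, 58.4 and 63.8 CPM after scrambled siRNA. SDHD was higher in each ALKBH5 siRNA library (log2 fold change 0.32, SE 0.09, adjusted p = 0.0058). The iron-sulfur subunit SDHB (0.01, SE 0.09, adjusted p = 0.94) and the other anchor SDHC (-0.10, SE 0.09, adjusted p = 0.32) were not called. SDHA shares 22.3% of its 50-base windows with other transcripts and SDHD 20.7%, and exons of TIMM8B overlap SDHD on the other strand.

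In complex III both core proteins fell, the subunits that carry the redox centres were not called, and the hinge protein rose. Of 10 genes, 3 were higher and 3 lower, with a median log2 fold change of 0.05. UQCRC2, a core protein derived from a processing peptidase family, had 83.7, 80.2 and 91.4 CPM in the ALKBH5 siRNA libraries, against 189, 173 and 189 CPM in the scrambled siRNA libraries. It was 2.16-fold lower with a wide gap (log2 fold change -1.11, SE 0.08, adjusted p = 2.8e-07). UQCRC1, the partner core protein, had 199, 199 and 236 CPM after ALKBH5 siRNA, against 256, 259 and 274 CPM after scrambled siRNA. Its fall was smaller, and again no library crossed over (log2 fold change -0.32, SE 0.08, adjusted p = 0.0061).

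UQCRB, an accessory subunit beside the ubiquinone-binding cytochrome b, had 40.3, 50.5 and 41.3 CPM in the ALKBH5 siRNA libraries, against 108, 96.4 and 113 CPM in the scrambled siRNA libraries. Every ALKBH5 siRNA library was far under every scrambled siRNA library (log2 fold change -1.27, SE 0.11, adjusted p = 8.7e-07). The catalytic subunits CYC1, which is cytochrome c1, and UQCRFS1, the Rieske iron-sulfur protein, had log2 fold changes of 0.04 (SE 0.08, adjusted p = 0.64) and -0.16 (SE 0.09, adjusted p = 0.15), the second of which was called lower with library totals (adjusted p = 0.045). CYC1 averaged 347 ± 21.9 CPM in ALKBH5 siRNA cells and 337 ± 16.3 CPM in scrambled siRNA cells, and UQCRFS1 averaged 119 ± 7 CPM in ALKBH5 siRNA cells and 133 ± 15.6 CPM in scrambled siRNA cells (SD, n = 3 each).

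UQCRH, the hinge protein that contacts cytochrome c1, had 102, 104 and 104 CPM in the ALKBH5 siRNA libraries, against 61, 61.7 and 74 CPM in the scrambled siRNA libraries. The ALKBH5 siRNA libraries were nearly equal and all higher (log2 fold change 0.66, SE 0.09, adjusted p = 5.3e-05). UQCRHL, a near-identical copy, had 59, 71.3 and 68.3 CPM after ALKBH5 siRNA and 45.7, 37.1 and 50.6 CPM after scrambled siRNA (log2 fold change 0.57, SE 0.12, adjusted p = 0.0013). Of the 50-base windows of UQCRH 29.4% also occur elsewhere. The counting set aside alignments that were not unique, so reads from shared windows may be missing from the values of the pair. UQCRH held 61.1% ± 2.15 of their summed CPM in ALKBH5 siRNA cells and 59.6% ± 2.64 in scrambled siRNA cells (SD, n = 3 each), a difference of 1.43 percentage points with an exact 2-sided permutation p of 0.5, where 0.1 is the smallest p that 3 against 3 allows. UQCR11, a small accessory subunit, had a log2 fold change of 0.36 (SE 0.10, adjusted p = 0.0068), while the accessory subunits UQCRQ and UQCR10 were not called (0.06 and 0.13).

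Among its tested genes, complex IV had a single large change in each direction, with most of its ubiquitous subunits close to their scrambled siRNA level. Of its 18 genes 12 were tested, 3 were higher and 1 lower, and the median log2 fold change was 0.15. The count of higher subunits fell to 1 without the 3rd ALKBH5 siRNA library and without the 1st or the 2nd scrambled siRNA library. COX6C, a small membrane subunit, had 143, 155 and 150 CPM in the ALKBH5 siRNA libraries, against 80.2, 77.9 and 97.3 CPM in the scrambled siRNA libraries. It had the highest log2 fold change of the tested members (0.81, SE 0.09, adjusted p = 1.3e-05). COX6A1, the liver-type and widely expressed form of subunit VIa, had 47.9, 54.2 and 54.1 CPM after ALKBH5 siRNA, against 74.6, 71.5 and 83.4 CPM after scrambled siRNA. It was low in each ALKBH5 siRNA library (log2 fold change -0.55, SE 0.09, adjusted p = 0.00026), and 34.6% of its 50-base windows also occur in other transcripts.

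COX4I1, an early partner of the mitochondrially encoded COX1 in assembly, had 395, 423 and 417 CPM in the ALKBH5 siRNA libraries and 367, 334 and 380 CPM in the scrambled siRNA libraries. The groups were adjacent without overlap (log2 fold change 0.19, SE 0.08, adjusted p = 0.043). COX6B1, which bridges the dimer, was higher by a similar amount (0.22, SE 0.08, adjusted p = 0.037). Neither COX4I1 nor COX6B1 was called with library totals in place of scaling factors (adjusted p = 0.14 and 0.11), and both calls were also lost without the 2nd or 3rd ALKBH5 siRNA or the 1st or 2nd scrambled siRNA library, with adjusted p up to 0.19 and 0.15. COX5A (0.16, adjusted p = 0.16), COX5B (0.14, adjusted p = 0.13), NDUFA4 (0.15, adjusted p = 0.087), COX7A2, COX7B, COX7C and COX8A were not called. COX5B was called higher without the 2nd ALKBH5 siRNA library (adjusted p = 0.026), and COX5A without the 3rd scrambled siRNA library (log2 fold change 0.24). With a correction for GC content and coding length, chosen after seeing the data, both were called higher (adjusted p = 0.047 for COX5B and 0.037 for COX5A), and COX6B1 was not (adjusted p = 0.05 after rounding). The call of COX6B1 was also lost without the 3rd scrambled siRNA library (adjusted p = 0.068). NDUFA4 was first assigned to complex I and is now counted with complex IV.

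The tissue isoforms of complex IV were nearly silent. COX4I2, COX6A2, COX7A1 and COX7B2 had 0 reads in all 6 libraries, which allows up to 3 reads a group, or 0.0505 CPM in ALKBH5 siRNA and 0.048 CPM in scrambled siRNA cells. COX8C, a testis isoform, had 3 reads in the ALKBH5 siRNA group and 1 in the scrambled siRNA group (ratio 3.16, 95% exact interval 0.253 to 166). COX6B2, also a testis isoform, made up 0.438% ± 0.161 of the COX6B reads in ALKBH5 siRNA cells and 0.349% ± 0.0466 in scrambled siRNA cells (SD, n = 3 each). NDUFA4L2, a paralog of NDUFA4 known to respond to hypoxia, stood apart, with 1, 0 and 0 reads in the ALKBH5 siRNA libraries, against 3, 14 and 8 in the scrambled siRNA libraries. The ratio of its summed reads was 0.0421 (95% exact interval 0.00103 to 0.257). Intervals and limits from reads cover counting error only. NDUFA4L2 did not pass the filter on low counts, and a fit without that filter gave an adjusted p of 0.0033. Exons of SHMT2 overlap NDUFA4L2 on the other strand, and the strand setting of the counting is not known.

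In complex V 2 subunits were higher and 4 lower of 15, with 0 called at 1.5-fold or more, and with a library left out 1 to 4 were higher and 2 to 3 lower. In the catalytic F1 head, ATP5A1 (alpha) had 335, 347 and 347 CPM in the ALKBH5 siRNA libraries, against 449, 418 and 472 CPM in the scrambled siRNA libraries. All ALKBH5 siRNA libraries were lower (log2 fold change -0.38, SE 0.07, adjusted p = 0.00073), and exons of HAUS1 overlap it on the other strand. ATP5B (beta), which pairs with alpha in equal number in the enzyme, had 819, 897 and 884 CPM after ALKBH5 siRNA and 813, 824 and 888 CPM after scrambled siRNA. Its groups overlapped and it was not called (log2 fold change 0.04, SE 0.07, adjusted p = 0.64).

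In the central stalk ATP5C1 (gamma) was lower by a small amount (log2 fold change -0.18, SE 0.07, adjusted p = 0.048), a call lost without any 1 scrambled siRNA library and without the 1st or 3rd ALKBH5 siRNA library (adjusted p of 0.078 to 0.16). ATP5E (epsilon) had 18.3, 24 and 23.7 CPM in the ALKBH5 siRNA libraries and 16, 15.6 and 18.2 CPM in the scrambled siRNA libraries. The lowest ALKBH5 siRNA value sat just over the highest scrambled siRNA value (log2 fold change 0.41, SE 0.13, adjusted p = 0.017), and the call was lost without the 2nd or 3rd ALKBH5 siRNA or the 1st or 2nd scrambled siRNA library (adjusted p of 0.054 to 0.075). With the correction for GC content and coding length, the log2 fold change of ATP5E was 0.18 (adjusted p = 0.23). ATP5EP2, listed as a pseudogene of ATP5E, held 83.8% ± 1.52 of their joint CPM in ALKBH5 siRNA cells and 86.2% ± 0.61 in scrambled siRNA cells (SD, n = 3 each), so most of the reads were listed under the pseudogene. ATP5EP2 itself was not called (0.14, adjusted p = 0.14). ATP5D (delta) had 50.4, 31.7 and 47.9 CPM after ALKBH5 siRNA and 29.8, 37.7 and 34.2 CPM after scrambled siRNA, with overlap (0.36, SE 0.16, adjusted p = 0.084). Without the 2nd ALKBH5 siRNA library, the low one, ATP5D had a log2 fold change of 0.54 and an adjusted p of 0.0028.

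The peripheral stalk (ATP5F1, ATP5H, ATP5J and ATP5O) had 0 of 4 subunits called by edgeR and 1 with an unadjusted p under 0.05, ATP5H, which had a log2 fold change of -0.17 (SE 0.07, adjusted p = 0.058). ATP5H was called lower with library totals (-0.23, adjusted p = 0.0095). ATP5O, the oligomycin sensitivity protein, averaged 274 ± 6.9 CPM in ALKBH5 siRNA cells and 271 ± 11.7 CPM in scrambled siRNA cells (SD, n = 3 each). ATP5L, subunit g at the dimer interface, had 147, 170 and 154 CPM in the ALKBH5 siRNA libraries, against 123, 105 and 115 CPM in the scrambled siRNA libraries. It was higher throughout (log2 fold change 0.46, SE 0.09, adjusted p = 6e-04). Its membrane neighbours ATP5I (subunit e) and ATP5J2 (subunit f) were not called, with log2 fold changes of 0.19 and -0.01. ATP5I was called higher without the 3rd scrambled siRNA library (adjusted p = 0.046).

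The c-ring subunit is made from 3 genes that encode the same mature protein. ATP5G1 had 61.9, 77.2 and 88.7 CPM in the ALKBH5 siRNA libraries and 52.4, 59.6 and 68.4 CPM in the scrambled siRNA libraries, which overlap (log2 fold change 0.34, SE 0.14, adjusted p = 0.051). It was called without the 1st ALKBH5 siRNA library (adjusted p = 0.0043), without the 3rd scrambled siRNA library (adjusted p = 0.029) and with DESeq2 (adjusted p = 0.028). ATP5G2 and ATP5G3 were lower (-0.26, SE 0.09, adjusted p = 0.019, and -0.30, SE 0.08, adjusted p = 0.0075), and ATP5G2 lost its call without the 1st or 2nd ALKBH5 siRNA or the 1st or 3rd scrambled siRNA library. The share of ATP5G1 in the summed c-ring CPM was 14.1, 16.5 and 18% in the ALKBH5 siRNA libraries, against 9.78, 12.3 and 11.7% in the scrambled siRNA libraries. The groups did not overlap, with a difference of 4.94 percentage points and an exact 2-sided permutation p of 0.1, the smallest that 3 against 3 allows (adjusted p = 0.36 over 9 paralog shares).

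**Figure D3:**
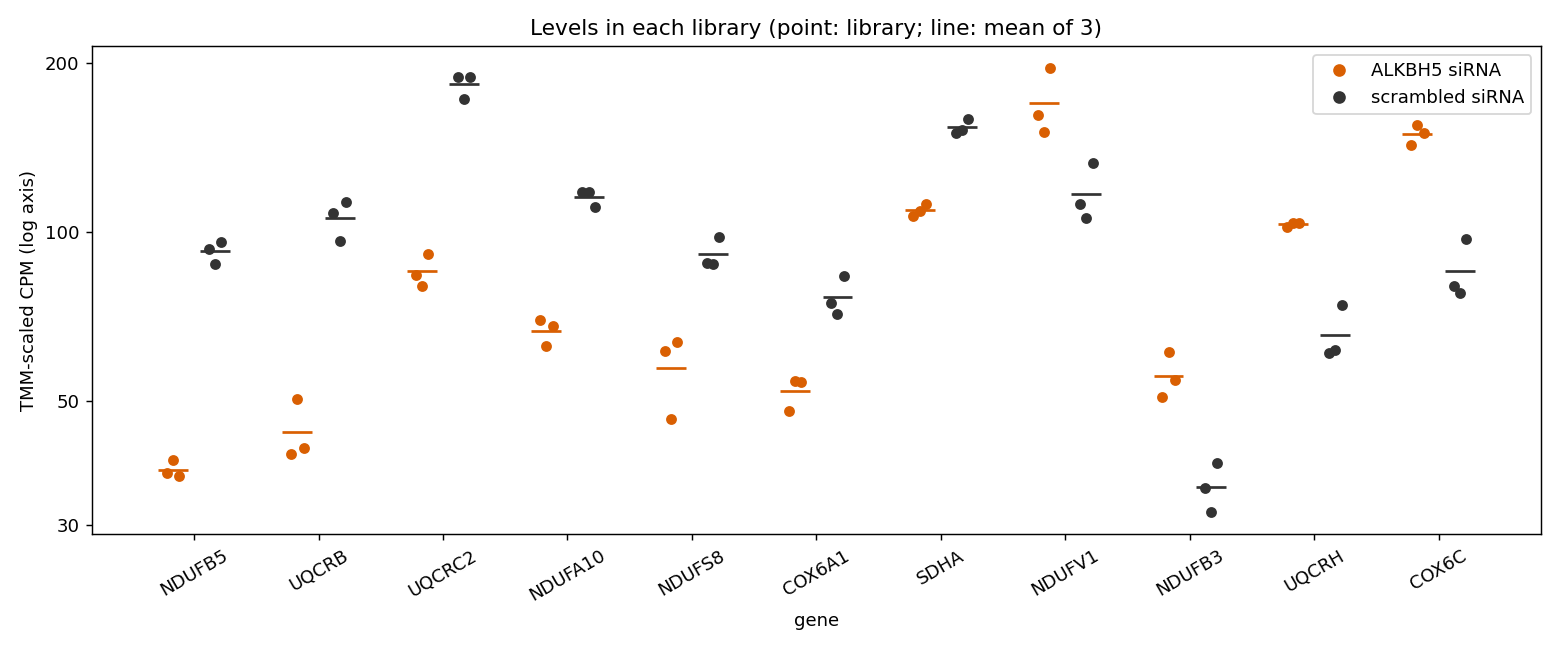
TMM-scaled CPM (log axis) of selected members in each library, with ALKBH5 siRNA (orange) left of scrambled siRNA (dark) for each gene. Points are libraries and lines are means of 3. All genes shown are called members whose groups do not overlap, from NDUFB5 (37.7 against 92.4 CPM on average) to COX6C (150 against 85.2 CPM). The groups did not overlap for 54.9% of all tested members and 67.4% of all tested genes.

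Summed over subunits, the complexes stayed close to their scrambled siRNA level, with ratios from 0.917 to 1.10. Complex I summed to 2920 ± 130 CPM in ALKBH5 siRNA cells and 2950 ± 132 CPM in scrambled siRNA cells (SD, n = 3 each), a ratio of 0.992. The ratios were 0.917 for complex II, 0.927 for complex III, 1.10 for complex IV and 0.959 for complex V. Complex II summed to 331, 358 and 354 CPM in the ALKBH5 siRNA libraries, against 369, 371 and 397 CPM in the scrambled siRNA libraries. Complex IV summed to 2030, 2130 and 2150 CPM after ALKBH5 siRNA, against 1900, 1850 and 2000 CPM after scrambled siRNA. With this scaling the groups stayed apart for these sums, and those of complexes I, III and V overlapped.

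Together the 83 genes took 0.98% of CPM in ALKBH5 siRNA cells and 0.991% in scrambled siRNA cells. With library totals in place of scaling factors, the ratios were 0.948, 0.877, 0.886, 1.05 and 0.917 for complexes I to V, complex IV overlapped, and complexes III and V did not. The median log2 fold change per complex was 0.07, -0.05, 0.05, 0.15 and -0.01 for complexes I to V, against 0.01 for all tested genes. Library totals moved the median of all tested genes to -0.06 and that of all members to -0.02, where it was 0.04 with scaling. Differences between complexes were not tested, since the sums of a library share its depth and its scaling.

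**Figure D4:**
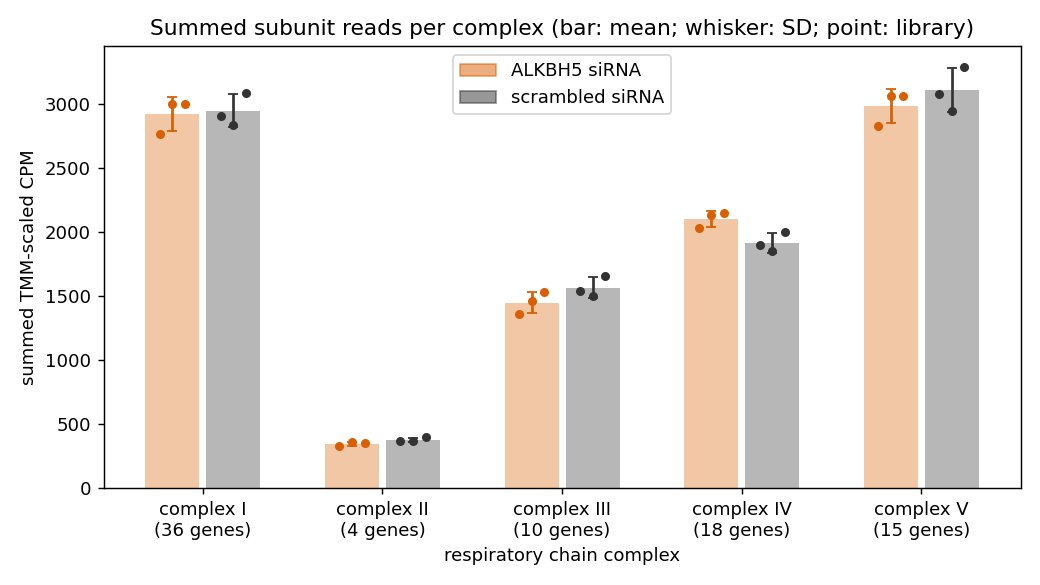
Summed TMM-scaled CPM of the subunit genes of each complex. Bars are means, whiskers are SD over 3 libraries and points are libraries, with ALKBH5 siRNA (orange) left of scrambled siRNA (dark). Complex IV (2100 against 1920 CPM) stands higher after ALKBH5 siRNA and complex II (348 against 379 CPM) lower, while the other 3 overlap.

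Calls among the subunits of the symbol pattern were counted by coding length. Of 20 subunit genes with a coding length up to 300 bases (GENCODE 29), 7 were higher and 0 lower, with a median log2 fold change of 0.17. Of 37 genes with more than 300 and up to 600 bases, 11 were higher and 7 lower, and the median was 0.07. Of 9 genes with more than 600 and up to 900 bases, 0 were higher and 4 lower (median -0.16), and of 11 genes with more than 900 bases 1 was higher, NDUFV1, and 6 were lower (median -0.32). Across the 77 subunit genes, Pearson's r of log2 fold change with log coding length was -0.39 and Spearman's rho -0.39, as a description, since genes share libraries and are not independent. Within complex I the values were -0.27 and -0.19 over 36 genes, and within complex V -0.53 and -0.48 over 15 genes.

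The same relation was absent over all 13378 tested genes with a coding length, with Pearson's r of 0 and Spearman's rho of -0.01. Of all tested genes with up to 300 bases 31.7% were higher and 21.7% lower, and of those with more than 900 bases 30.7% were higher and 32.4% lower. The share of short subunit genes called higher (35%) lies near the share of all short genes. The classes of more than 300 and up to 600 bases and of more than 600 and up to 900 bases held 31.9% and 32.3% higher and 30.4% lower each. Over all genes the median log2 fold change of those 4 length classes was 0.07, 0.02, 0.02 and -0.01. Among subunits of the symbol pattern with up to 600 bases, UQCRB and NDUFB5 have the lowest log2 fold changes. Of the short genes listed outside the pattern, C14orf2 (174 bases) was lower (-1.71) and HIGD1A (279 bases) higher (0.82). USMG5 (174 bases) was not called.

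**Figure D5:**
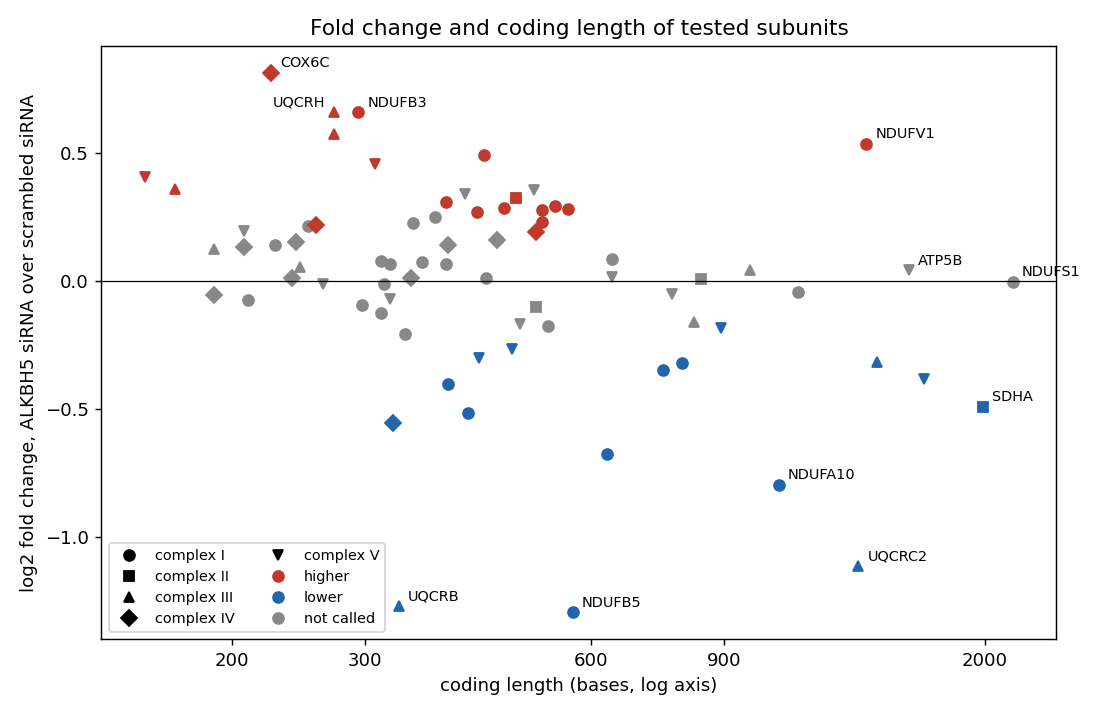
Log2 fold change, ALKBH5 siRNA over scrambled siRNA (vertical axis), against coding length in bases (log axis) for the tested subunits reported here, without COX6B2. Shapes mark complexes, and red, blue and grey mark higher, lower and not called. No subunit shown of up to 300 bases is blue, and of those over 900 bases NDUFV1 alone is red. C14orf2, a complex V subunit of 174 bases outside the symbol pattern, was called lower and is not shown.

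The name pattern also matched 8 genes that were not counted as subunits. Of these, COX4NB (now EMC8, an endoplasmic reticulum membrane complex subunit whose exons overlap COX4I1) was higher by 0.33 (SE 0.08, adjusted p = 0.0035). ATP5S, now DMAC2L, had 11.8, 11.8 and 9.32 CPM in the ALKBH5 siRNA libraries, against 23.2, 22.9 and 23.1 CPM in the scrambled siRNA libraries, a 2.1-fold lower level (log2 fold change -1.07, SE 0.12, adjusted p = 1.2e-05). ATP5SL, now DMAC2 and a complex I assembly factor, fell by 0.34 on the log2 scale (SE 0.08, adjusted p = 0.0024). COX7A2L, a supercomplex factor, was not called (-0.11, adjusted p = 0.21), but was called lower with library totals (-0.17, adjusted p = 0.039). The read-through genes ATP5J2-PTCD1 and NDUFC2-KCTD14 had 0 reads in both groups, and ATP5L2 had 0 reads in ALKBH5 siRNA and 1 read in scrambled siRNA cells.

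Among 7 carriers and subunits outside the symbol pattern, CYCS and C14orf2 moved further than any tested member. CYCS, cytochrome c, had 152, 185 and 164 CPM in the ALKBH5 siRNA libraries, against 41.7, 40.5 and 58.7 CPM in the scrambled siRNA libraries, with no overlap. It was 3.56-fold higher (log2 fold change 1.83, SE 0.14, adjusted p = 1.7e-06), and GENCODE names 40 pseudogenes after it. C14orf2, a small ATP synthase membrane subunit (ATP5MPL in GENCODE 29), had 23, 25.7 and 21.2 CPM after ALKBH5 siRNA, against 82.3, 74.1 and 72.3 CPM after scrambled siRNA. The drop was uniform (log2 fold change -1.71, SE 0.10, adjusted p = 6.8e-08). HIGD1A, a respirasome-associated protein, had a log2 fold change of 0.82 (SE 0.10, adjusted p = 2.6e-05). Of the 7 genes 5 were called, 2 higher and 3 lower (71.4%, against 61.6% of all tested genes).

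Assembly factors, which build the complexes without staying in them, were lower more often than higher. Of 50 tested, 7 were higher and 25 lower (50.0% lower, against 30.8% of all tested genes), with a median log2 fold change of -0.24, against 0.01 for all tested genes. For complex I factors 2 were higher and 7 lower of 16, for complex II 0 and 2 of 4, for complex III 1 and 2 of 6, for complex IV 4 and 12 of 21, and for complex V 0 and 2 of 3. NUBPL, which inserts iron-sulfur clusters into complex I, fell by 0.86 (SE 0.12, adjusted p = 7.3e-05), and C7orf44 (COA1) and C2orf56 (NDUFAF7) by 0.77 and 0.74 on the log2 scale. SDHAF2, which attaches the flavin to SDHA, had 34.5, 40.8 and 35.4 CPM in the ALKBH5 siRNA libraries, against 59.6, 60.2 and 55.6 CPM in the scrambled siRNA libraries. It thus lay lower together with SDHA (log2 fold change -0.66, SE 0.10, adjusted p = 7.9e-05), and ACN9 (SDHAF3) fell by 0.24 (adjusted p = 0.048), a call lost with DESeq2 and without the 2nd or 3rd ALKBH5 siRNA library, among others.

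LYRM7, a chaperone of the Rieske protein, had 31.1, 31.5 and 30.8 CPM in the ALKBH5 siRNA libraries, against 12.9, 13.5 and 13.9 CPM in the scrambled siRNA libraries. It rose (log2 fold change 1.21, SE 0.10, adjusted p = 7.5e-07) while the cytochrome b factors UQCC (UQCC1) and C6orf125 (UQCC2) fell by 0.99 and 0.39 on the log2 scale (adjusted p = 2.1e-06 and 0.0036). SCO1, a copper chaperone of complex IV, had 36.7, 42.4 and 38.7 CPM after ALKBH5 siRNA, against 12.2, 12.4 and 14.9 CPM after scrambled siRNA. It was 2.98-fold higher (log2 fold change 1.58, SE 0.12, adjusted p = 3e-07), while CHCHD8 (COA4) and COX18, which inserts part of COX2 into the membrane, fell by 1.04 and 1.16 on the log2 scale (adjusted p = 3e-06 and 7.6e-05). ATPAF1, which escorts the beta subunit of F1, had 39.3, 41.2 and 37.9 CPM in the ALKBH5 siRNA libraries, against 82.7, 87.8 and 85.5 CPM in the scrambled siRNA libraries (log2 fold change -1.11, SE 0.08, adjusted p = 3.6e-07). ATPAF2, which escorts alpha, fell by 0.46 (SE 0.12, adjusted p = 0.0045).

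Of 16 regulators of respiratory genes and mitochondrial DNA, 4 were higher and 4 lower. The share called, 50.0%, is below the 61.6% of all tested genes. NRF1, whose motif is shown above, had 23.6, 26.5 and 22 CPM in the ALKBH5 siRNA libraries and 25.5, 24.8 and 24.1 CPM in the scrambled siRNA libraries, and was not called (log2 fold change -0.05, SE 0.11, adjusted p = 0.71). YY1 was higher by a small amount (log2 fold change 0.20, SE 0.08, adjusted p = 0.043), without overlap of the groups. GABPA and GABPB1, the subunits of GABP, went opposite ways, with log2 fold changes of 0.69 (SE 0.11, adjusted p = 0.00022) and -0.58 (SE 0.10, adjusted p = 0.00025). Exons of GABPA overlap those of ATP5J on the other strand, and the strand setting of the counting is not known. The coactivators PPARGC1A and PPARGC1B also went opposite ways. PPARGC1A had 8.04, 6.47 and 3.89 CPM in the ALKBH5 siRNA libraries, against 19.2, 17.5 and 10.7 CPM in the scrambled siRNA libraries, with no overlap (log2 fold change -1.37, SE 0.28, adjusted p = 0.0022). PPARGC1B was higher (log2 fold change 0.96, SE 0.16, adjusted p = 0.00027).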

How the data were processed

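Polyadenylated RNA of 6 U2OS libraries was read with a stranded kit as single reads of 50 bases, per the labels. The authors deposited unnormalised counts of reads for each gene symbol, per the file headers. CASAVA 1.8.2, TopHat2, SAMtools, HTSeq and build hg19 appear in the submitters' processing notes. No source used here gives settings, annotation or strand mode. Entries of HTSeq for reads outside genes (17.3 to 18.6% in the ALKBH5 siRNA and 15 to 15.5% in the scrambled siRNA libraries) stayed out of library sizes. Alignments that were not unique stayed out of the gene counts and library sizes as well. They numbered 11773521 to 12200445 in the ALKBH5 siRNA and 11315580 to 13887503 in the scrambled siRNA libraries.

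The count test was edgeR 4.0.16 under R 4.3.3 (filterByExpr, TMM scaling, robust glmQLFit and glmQLFTest, group as the single term), with Benjamini-Hochberg adjustment over 14504 tested genes and a threshold of 0.05. A gene at 1 CPM rests on 18.8 to 23.4 reads. Shares of paralogs were compared by exact permutation. Coding length and shared windows of 50 bases come from GENCODE 29 transcripts, found for all 91 members, and promoters from RefSeq, found for 71. The fit was tested on simulated data.

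Members, gene lists and tests were chosen with earlier results of these data known. Named genes were ALKBH5, up to 4 higher and 4 lower called subunits per complex with the largest change and an average log2 CPM of at least 2, the core and catalytic subunits, paralogs, members that failed the filter, and up to 3 called genes of each other list. Other genes were named after their values were seen, such as NDUFB4, NDUFB7, NDUFB9, NDUFAB1, NRF1 and the remaining genes that share the name pattern. Alternatives were DESeq2 1.42.0, limma-voom 3.58.1, RLE scaling, library totals, no filter, a minimum of 1 CPM in 3 libraries, no robust moderation, a replicate block, and leaving out single libraries. A correction for GC content and coding length was chosen after seeing the data. A member enters the counts but is not reported here by itself, and the plots of single genes leave it out.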

Additional observations from a re-analysis of the deposited data

How the results depend on the processing

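Of 39 called members, 29 were called under all 15 alternatives, among them all 10 that changed 1.5-fold or more. No called value changed sign under any of them. Calls that were lost belonged to small changes: ATP5C1, COX6B1, COX4I1, ATP5E, NDUFB10, NDUFB9, ATP5G2, NDUFA8, NDUFA11 and NDUFB8. With library totals the median log2 fold change was -0.0558 for all tested genes, -0.0226 for all members, 0.0011 for complex I and 0.0807 for complex IV, and 1 complex IV subunit was higher. Without the filter 2 complex IV genes were lower, the added one being NDUFA4L2. With DESeq2 4 complex V subunits were higher. With the correction for GC content and coding length the median of all tested genes was -0.0122. Causes of these shifts were not tested.

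With a library left out, 12 to 23 members were higher and 17 to 19 lower, with 5 to 11 higher and 8 to 9 lower in complex I, 1 to 3 higher in complex IV, and 1 to 4 higher and 2 to 3 lower in complex V. The median of complex I ran from -7e-04, without the 2nd ALKBH5 siRNA library, to 0.0909. The number 12 came without the 2nd scrambled siRNA library. Replicate numbers did not meet the pairing criterion (same-number correlations of 0.331, 0.058 and 0.351), although each library other than the 2nd scrambled siRNA library correlated best with its own number. The fit with the replicate block called 4865 genes higher and 4895 lower, against 4471 and 4466 without it, lost 0 called members and added ATP5G1, ATP5H and NDUFS6.

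Depth limits the untested tissue isoforms of complex IV, NDUFA4L2 among them, which rest on at most 25 reads a group. Near-identical copies (UQCRH, COX6A1, ATP5E) and overlapping genes limit single values, and strand could not be used to part them.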
